A study of Rattus norvegicus with 36 samples.

Results

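T and NK cell marker genes were followed in the livers of 36 male rats by taking every probe set, the set of short probes that reports 1 transcript on an Affymetrix array, whose platform annotation names Klrd1, Prf1, Cd3e, Cd3g, Nkg7, Cd8a, Cd2, Cd5, Gzmm or Klrb1 and no other gene. The rule found 12 probe sets of 31042, for 9 of the 10 genes, among 14217 distinct genes on the array. Cd8a had 3 probe sets (1369877_at, 1385414_at and 1395116_at), Cd3e had 2 (1379791_at and 1389997_at), and each other gene had 1. Those were 1384787_at for Cd3g, 1369190_at for Cd2, 1369025_at for Cd5, 1369306_at for Klrd1, 1368455_at for Nkg7, 1370096_at for Prf1 and 1370369_at for Gzmm. Klrb1 had no probe set under that symbol, and its relatives Klrb1a, Klrb1b and Klrb1c were kept among the further NK cell genes.

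The animals were Harlan Sprague Dawley males, 7 weeks old at the start, given decabromodiphenylethane (DBDPE), a brominated flame retardant, in corn oil by gavage at 5 ml/kg on 5 consecutive days. The 6 groups of 6 received the corn oil vehicle alone (a dose of 0) or, as mg/kg per day, 970, 97.1, 9.71, 0.97 and 0.1 of the compound, and RNA came from the left liver lobe, removed 1 day after dosing ended. The groups shared sex, strain, age and vehicle and differed in dose, so the values describe males of a single outbred stock at a single time. The tissue matched its label, since the mean log2 signal of 9 hepatocyte markers lay between 13.19 and 13.45 in every animal.

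T cells read antigen through a receptor whose signal is carried by the CD3 chains, with CD8 as the coreceptor of the cytotoxic class. NK cells lack that receptor and weigh activating against inhibitory receptors, of which CD94, the product of Klrd1, is a shared subunit. Both kinds of cell kill by releasing granules that hold perforin and granzymes. The liver holds a resident population of NK and T cells in its sinusoids, beside Kupffer cells, the macrophages of the liver. In RNA from whole tissue, fewer cells of a type and less RNA per cell cannot be told apart.

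The 300 bases around the start of 3 cytotoxic genes are shown because their levels correlated with each other over the animals (r = 0.57 to 0.60, of which no pair passed the test over the whole table), and Cd3e is shown beside them as a T cell gene. The sequences come from RefSeq on the assembly GRCr8 and run 5′ to 3′ on the gene's strand, from 250 bases before the start to 50 after it. Capitals mark matches, on either strand, to 5 short motifs: TGTGGT of the RUNX factors, GGTGTGA of the T-box factors, TTCNNNGAA of the STAT factors, ACAGGAAG of the ETS factors and the IRF motif. Promoters were in the table for 8 of the 9 measured genes, and Klrd1 was not among them.
Prf1: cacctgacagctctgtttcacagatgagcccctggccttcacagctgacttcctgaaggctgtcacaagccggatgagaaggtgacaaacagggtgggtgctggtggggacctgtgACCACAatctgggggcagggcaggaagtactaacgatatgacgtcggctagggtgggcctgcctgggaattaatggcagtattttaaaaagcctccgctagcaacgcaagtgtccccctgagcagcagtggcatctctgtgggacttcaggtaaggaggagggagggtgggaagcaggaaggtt
Nkg7: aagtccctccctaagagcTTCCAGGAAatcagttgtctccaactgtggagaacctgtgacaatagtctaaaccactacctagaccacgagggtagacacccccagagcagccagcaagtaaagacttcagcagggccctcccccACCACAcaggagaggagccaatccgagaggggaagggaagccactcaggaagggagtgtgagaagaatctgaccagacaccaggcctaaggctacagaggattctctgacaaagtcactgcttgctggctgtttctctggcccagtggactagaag
Gzmm: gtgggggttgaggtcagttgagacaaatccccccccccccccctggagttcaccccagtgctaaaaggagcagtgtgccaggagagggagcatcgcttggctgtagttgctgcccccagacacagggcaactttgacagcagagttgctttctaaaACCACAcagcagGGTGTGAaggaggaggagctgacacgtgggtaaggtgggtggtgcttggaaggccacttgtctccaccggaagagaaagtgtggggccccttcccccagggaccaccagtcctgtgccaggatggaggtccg
Cd3e: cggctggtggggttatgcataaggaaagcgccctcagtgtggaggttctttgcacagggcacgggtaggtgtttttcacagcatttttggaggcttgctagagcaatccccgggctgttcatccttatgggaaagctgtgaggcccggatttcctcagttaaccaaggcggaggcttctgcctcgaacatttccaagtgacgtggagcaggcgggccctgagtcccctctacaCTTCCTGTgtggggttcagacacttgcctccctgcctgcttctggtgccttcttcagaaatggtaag
The Prf1 window is chr20:29788790-29789089 (plus strand), that of Nkg7 is chr1:102981247-102981546 (plus strand), that of Gzmm is chr7:10667207-10667506 (minus strand) and that of Cd3e is chr8:54211721-54212020 (minus strand). The RUNX letters occurred at -134 in Prf1, at -106 in Nkg7 and at -94 in Gzmm, and 17.3% of 33469 rat promoters of the same length hold them. The T-box letters occurred at -82 in Gzmm, against 3.8% of promoters, and the STAT letters at -232 in Nkg7, against 8.9%. The ETS letters occurred at -17 in Cd3e, against 3.3%, and the IRF letters, held by 3.9% of promoters, were in none of the 4. Of the genes not shown, Cd2 held the RUNX letters at -20 and 19 and Cd3g the ETS letters at -238, and Cd8a and Cd5 held none of the 5. No matches overlapped, and a match is a description of the letters, not of a bound site.

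Any 2 arrays agreed at r = 0.993 to 0.997 over the probe sets, array medians ran from 5.07 to 5.12, and no arrays were identical. The number of arrays limits the precision. Over all probe sets the median 95% interval of a log2 fold change reached 0.16 to either side. For the members the standard error of that fold change ran from 0.06 for Cd3e (1389997_at) to 0.18 for Prf1. Each numbered sample was treated as 1 rat, although the labels do not state it, so p-values measure the spread between these samples.

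The levels are log2 signals after robust multi-array averaging (RMA), and 1 unit is a doubling. Perforin, the pore-forming protein of cytotoxic granules, had the widest range of the 12 probe sets. Its level spanned 1.28 log2 units over the 36 animals, and its within-group SD of 0.33 was larger than that of 97.5% of all probe sets. In the vehicle animals Prf1 stood at 5.33, 6.09, 5.02, 4.88, 5.23 and 5.55. The 6 animals at 0.1 mg/kg had a lowest, median and highest Prf1 level of 5.15, 5.51 and 5.82, and those at 0.97 mg/kg of 5.24, 5.85 and 6.16. At the higher doses the lowest, median and highest Prf1 levels were 5.11, 5.35 and 6.05 at 9.71 mg/kg, 5.22, 5.58 and 5.87 at 97.1 mg/kg, and 5.28, 5.72 and 5.96 at 970 mg/kg. A single vehicle animal, replicate 2, was higher than all but 1 of the 30 treated animals, and every treated group overlapped the vehicle group.

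Gzmm encodes granzyme M, a granule protease of NK cells. It was above the array's own median in 36 of 36 arrays and spanned 0.90 log2 units. The lowest, median and highest Gzmm levels were 5.70, 6.08 and 6.37 in vehicle, 5.99, 6.22 and 6.23 at 0.1 mg/kg and 5.96, 6.26 and 6.34 at 0.97 mg/kg. They were 6.00, 6.15 and 6.59 at 9.71 mg/kg, 6.15, 6.25 and 6.28 at 97.1 mg/kg, and 5.97, 6.34 and 6.44 at 970 mg/kg. The groups overlapped, and the 97.1 mg/kg group was the tightest, with an SD of 0.05 (n = 6) against 0.24 (n = 6) in vehicle.

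Nkg7, a protein of the granule membrane, lay above the array's median in 1 of 36 arrays. Its lowest, median and highest levels were 4.45, 4.59 and 5.06 in vehicle, 4.60, 4.83 and 5.07 at 0.1 mg/kg and 4.70, 4.98 and 5.05 at 0.97 mg/kg. At 9.71 mg/kg they were 4.62, 4.90 and 5.08, at 97.1 mg/kg 4.70, 4.82 and 5.26, and at 970 mg/kg 4.57, 4.86 and 5.08. The lowest vehicle animal lay under every treated animal, and the highest, at 5.06, lay within or just above the range of each treated group.

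Klrd1, the CD94 receptor chain, gave a weaker signal that lay under the array's median in all 36 arrays. The lowest, median and highest Klrd1 levels were 3.00, 3.40 and 3.66 in vehicle, 3.23, 3.44 and 3.67 at 0.1 mg/kg and 3.35, 3.59 and 3.91 at 0.97 mg/kg. They were 3.30, 3.65 and 3.95 at 9.71 mg/kg, 3.39, 3.55 and 3.73 at 97.1 mg/kg, and 3.34, 3.64 and 3.73 at 970 mg/kg. Of the 12 probe sets Klrd1 had the largest share of its variance between the dose groups, 26.1%, where the median over all probe sets was 12.5%. The groups still overlapped, with 3 of the 6 animals at 9.71 mg/kg above every vehicle animal.

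The T cell genes had within-group SDs between 0.11 and 0.22. Cd3e and Cd3g encode CD3 chains, Cd8a the alpha chain of CD8, Cd2 an adhesion and costimulatory receptor, and Cd5 a brake on receptor signalling. The lowest, median and highest levels of Cd3e (1379791_at) were 4.38, 4.63 and 4.75 in vehicle, 4.42, 4.63 and 5.06 at 0.1 mg/kg and 4.56, 4.64 and 4.81 at 0.97 mg/kg. At 9.71 mg/kg they were 4.48, 4.70 and 4.84, at 97.1 mg/kg 4.70, 4.81 and 4.89, and at 970 mg/kg 4.56, 4.71 and 5.11. At 97.1 mg/kg 4 of 6 animals lay above every vehicle animal, more than in any other treated group, and the groups overlapped.

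Over all 36 animals the level of Cd3g ranged from 4.17 to 4.83 and that of Cd2 from 4.61 to 5.19. Cd5 ranged from 3.15 to 3.99, with both its widest spread (SD 0.26, n = 6) and its highest animal in the vehicle group. The probe sets of Cd8a ranged from 4.72 to 5.44 (1369877_at), 4.55 to 5.44 (1385414_at) and 3.83 to 4.35 (1395116_at), and the second Cd3e probe set from 2.89 to 3.30. Only Cd8a and Cd2 among the T cell genes reached the array's median, the brightest Cd8a probe set in 15 arrays and Cd2 in 2. The deposited values carry no detection call, so whether the dimmer T cell probe sets stood above background was not tested.

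**Figure D1:**
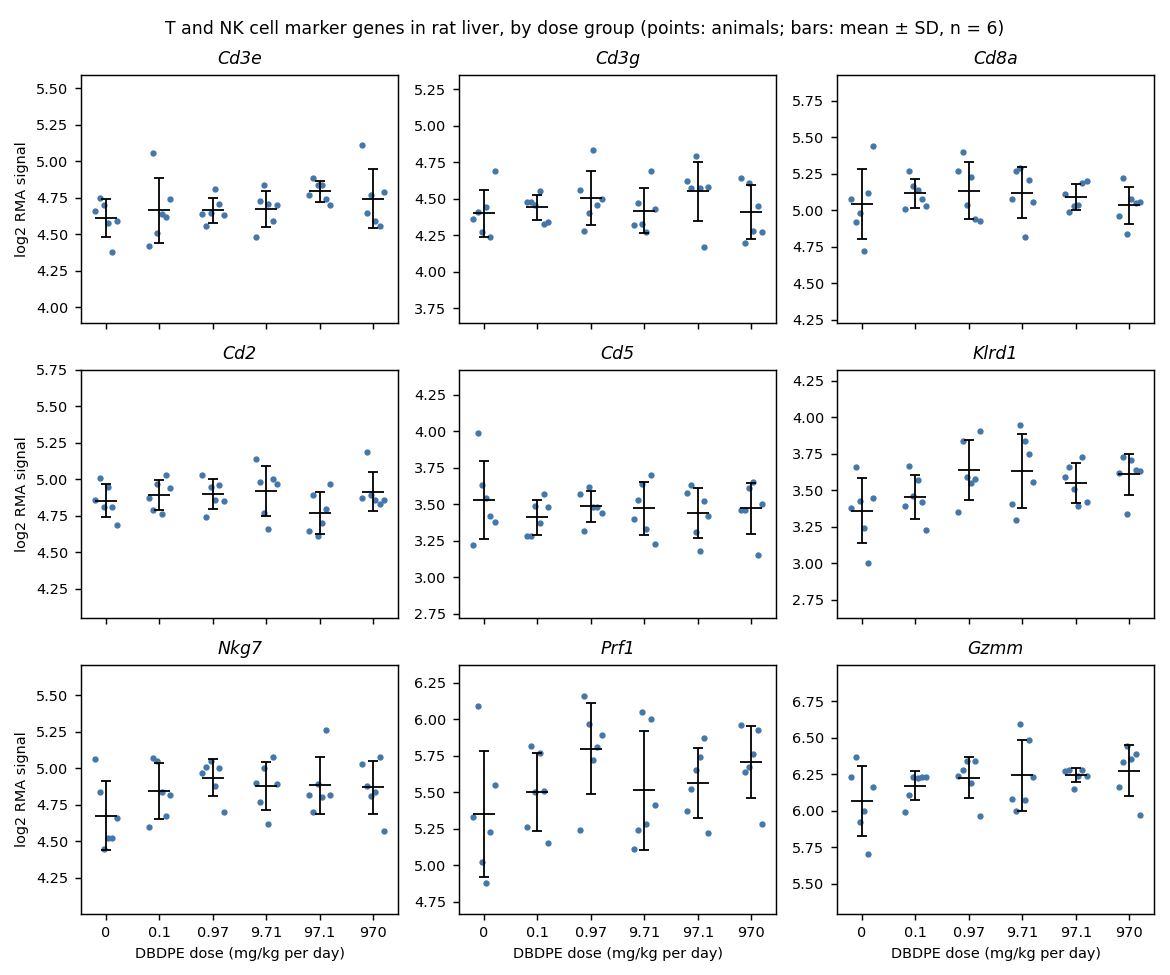
Log2 RMA signal of the 9 measured marker genes (1 panel each, the probe set of highest mean) in the 6 dose groups; points are animals and bars the mean ± SD (n = 6), on axes of equal height. Treated animals overlap the vehicle animals in every panel, and Prf1 has the widest scatter.

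No member changed with dose by the fit across all probe sets. With limma and Benjamini-Hochberg adjustment over 31042 probe sets at 0.05, 0 of the 12 member probe sets passed at any dose. The share of all probe sets that passed was 0% at 0.1 mg/kg, 0% at 0.97 mg/kg, 0% at 9.71 mg/kg, 0.00644% at 97.1 mg/kg and 0.00644% at 970 mg/kg. The moderated F test over the 5 doses and the slope across dose steps numbered 0 to 5 each called 0 members too, against 0.00644% of all probe sets for either. The lowest limma adjusted p of a member was 0.9012, for Cd3e (1379791_at) at 97.1 mg/kg.

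The measured differences were small and mostly upward. Member probe sets above the vehicle mean numbered 9, 11, 11, 10 and 8 of 12 from the lowest to the highest dose. Their median log2 fold changes were 0.07, 0.11, 0.08, 0.13 and 0.10, beside 48.08% to 50.52% of all probe sets above 0. The 5 comparisons share the same vehicle animals, so their directions are not independent of each other. At an unadjusted p under 0.05 in limma, 0, 4, 2, 1 and 2 member probe sets stood out, where 4.458%, 4.916%, 5.058%, 5.425% and 4.874% of all probe sets did.

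Prf1 had the largest estimate of any member, a log2 fold change of 0.45 (95% interval 0.09 to 0.81, limma adjusted p = 0.9845) at 0.97 mg/kg, or 1.36-fold. Its estimates at the other doses were 0.15, 0.17, 0.21 and 0.36 in order of dose, all below that at the second lowest dose. For Klrd1 the log2 fold change was 0.10 at 0.1 mg/kg, 0.28 (0.07 to 0.49) at 0.97 mg/kg, 0.28 (0.06 to 0.49) at 9.71 mg/kg, 0.19 at 97.1 mg/kg and 0.25 (0.04 to 0.47) at 970 mg/kg. Nkg7 lay between 0.17 and 0.26 above vehicle at the 5 doses and Gzmm between 0.10 and 0.21, so all 4 cytotoxic and NK genes were above vehicle at every dose, under every alternative run, without passing the test. The slopes of smallest p were those of Klrd1, 0.044 log2 units per dose step, Gzmm, 0.037, and Cd3e, 0.031, each with a limma adjusted p of 0.8632.

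Among the T cell genes, Cd5 was the only one below vehicle at all 5 doses, by log2 fold changes of -0.12, -0.04, -0.06, -0.09 and -0.06, a sign that held at 0.1 mg/kg with each animal left out in turn, turned at 0.97, 9.71 and 970 mg/kg and reached 0.00 at 97.1 mg/kg. Cd3e (1379791_at) differed by 0.19 (0.02 to 0.36) at 97.1 mg/kg and by 0.14 or less elsewhere, while its second probe set lay between -0.05 and 0.05. The Cd8a probe set 1385414_at was 0.12 to 0.28 above vehicle and 1369877_at between -0.01 and 0.09, so probe sets of the same gene gave different estimates. Cd3g lay between 0.01 and 0.15 and Cd2 between -0.09 and 0.06. No member probe set separated all 6 treated from all 6 vehicle animals at any dose, against 0.139%, 0.235%, 0.18%, 0.151% and 0.2% of all probe sets in order of dose.

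**Figure D2:**
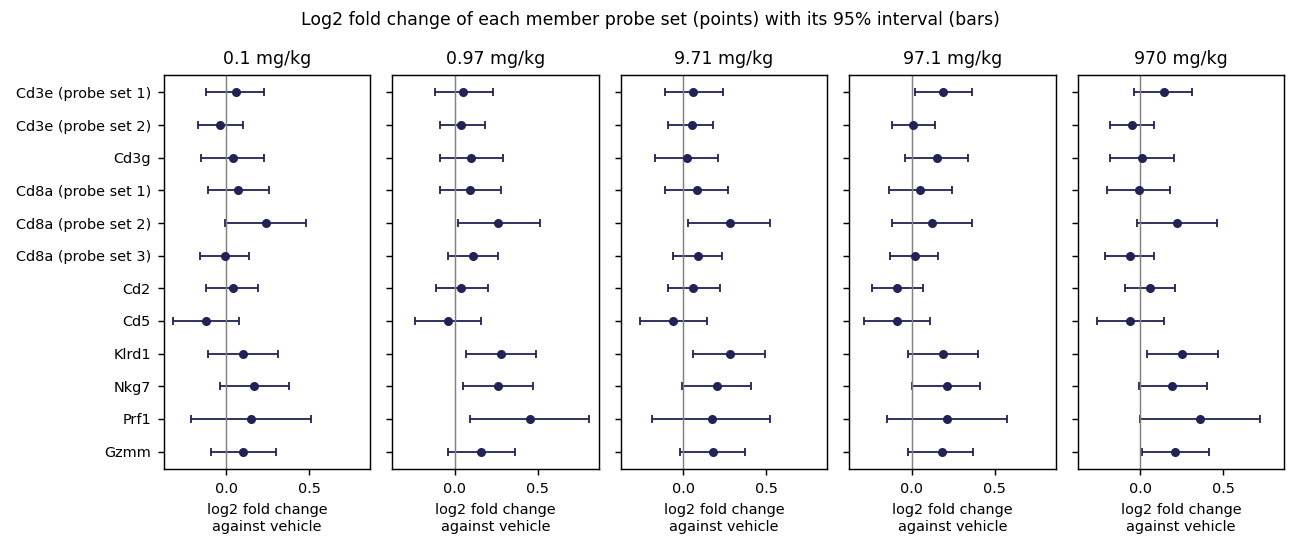
Log2 fold change against vehicle of the 12 member probe sets (points, with 95% limma intervals as bars) in 1 panel per dose; numbered probe sets of Cd3e and Cd8a follow the order in the text. The largest estimate is that of Prf1 at 0.97 mg/kg, 0.45 with an interval of 0.09 to 0.81.

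The further lymphocyte genes gave the same count. Of 101 listed T cell, NK cell, activation and chemokine genes 75 were measured, and 0 passed in limma at any dose. At most 0.00644% of all probe sets passed at a dose, and 0 of 75 is near that share. Of 20 T cell genes, 8, 15, 15, 13 and 9 were above vehicle in order of dose, with median log2 fold changes between -0.01 and 0.03. The 26 NK cell and cytotoxic genes had 15, 18, 16, 13 and 15 above vehicle, with medians between 0 and 0.08. In the 16 chemokine and receptor genes 11, 12, 14, 12 and 13 were above vehicle, with medians between 0.05 and 0.13.

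The animals were then compared with the means of their dose groups removed. Among Prf1, Klrd1, Nkg7 and Gzmm all 6 pairs of genes correlated above 0, with a median Pearson r of 0.57 (0.23 to 0.64) over 36 animals. The 5 T cell genes had a median r of -0.04 over their 10 pairs (-0.21 to 0.37), of which 4 were above 0. Between the sets 16 of 20 pairs were above 0, with a median of 0.12. The median over all 36 pairs was 0.13, and these medians carry no test. They depend on the probe set taken for Cd8a, which was that of highest mean, 1369877_at. Its r was 0.24 with Prf1, 0.34 with Nkg7, 0.16 with Gzmm and 0.09 with Klrd1. In the same order 1385414_at gave 0.47, 0.47, 0.49 and 0.24, and 1395116_at gave 0.38, 0.01, 0.21 and 0.16. With Cd3e, Cd3g, Cd2 and Cd5 the r of 1369877_at was -0.06, 0.03, -0.06 and -0.11. For these T cell genes 1385414_at gave 0.25, 0.16, -0.16 and 0.03, and 1395116_at gave 0.18, 0.26, -0.13 and 0.02. None of these passed in limma over the whole table.

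Prf1 and Klrd1 were the closest pair, with r = 0.64 (permutation p = 0.00055, 100000 permutations of animals within dose groups) and Spearman's rho = 0.64 (permutation p = 0.00032). Without the 2 animals farthest from the median of Klrd1 the r was 0.62, and within the 6 dose groups it ran from 0.03 at 970 mg/kg to 0.96 at 0.1 mg/kg. Nkg7 and Gzmm correlated at r = 0.60 (permutation p = 0.00033) and rho = 0.59 (permutation p = 0.00054), with r = 0.63 without the 2 farthest animals and above 0 in 6 of 6 groups. Prf1 and Gzmm gave r = 0.58 (permutation p = 0.00291), rho = 0.52 (permutation p = 0.00466) and r = 0.57 without the 2 farthest animals. Within the dose groups their r was above 0 in 5 of 6. It was -0.06 at 97.1 mg/kg, 0.05 at 0.97 mg/kg, 0.12 at 0.1 mg/kg and 0.97 at 9.71 mg/kg. Nkg7 and Prf1 gave r = 0.57 (permutation p = 0.00102), rho = 0.58 (permutation p = 0.00061) and r = 0.52 without the 2 farthest animals. Their r ran from 0.06 to 0.96 within the groups. Klrd1 had lower values with Gzmm and Nkg7. Klrd1 and Gzmm gave r = 0.35 (permutation p = 0.0877), rho = 0.27 (permutation p = 0.166) and r = 0.09 without the 2 farthest animals, above 0 in 3 of 6 groups. Klrd1 and Nkg7 gave r = 0.23 (permutation p = 0.21), rho = 0.23 (permutation p = 0.197) and r = 0.15 without the 2 farthest animals, and neither pair reached 0.05.

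Of the T cell pairs, Cd2 and Cd5 had the highest r, 0.37 (permutation p = 0.047), with rho = 0.38 (permutation p = 0.038) and r = 0.48 without the 2 farthest animals. The CD3 chains Cd3e and Cd3g gave r = 0.28 (permutation p = 0.081), rho = 0.23 (permutation p = 0.201) and 0.18 without the 2 farthest animals. Cd2 and Klrd1 were the most opposed pair, at r = -0.31 (permutation p = 0.105), with rho = -0.35 (permutation p = 0.061) and -0.34 without the 2 farthest animals. Probe sets of 1 T cell gene hardly followed each other either, with r = 0.19 for the pair of Cd3e and 0.29, -0.01 and 0.06 for those of Cd8a. These permutation p-values stand among 36 pairs and were not adjusted. The limma fits that follow adjust their own p-values over the whole table, which can be smaller. For Klrd1 in the fit with Prf1 the unadjusted limma p was 5.54e-05, where the permutation p was 0.00055.

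**Figure D3:**
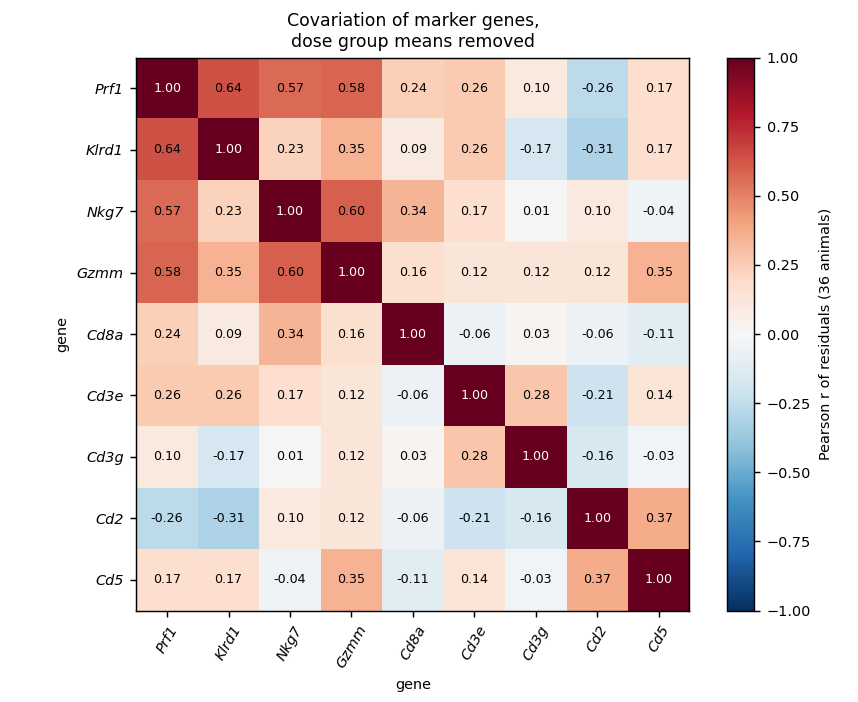
Pearson r between the 9 measured genes (the probe set of highest mean each) over 36 animals, dose group means removed, on a scale from -1 (blue) to 1 (red). The 6 pairs of Prf1, Klrd1, Nkg7 and Gzmm lie between 0.23 and 0.64, and the 10 pairs of T cell genes between -0.21 and 0.37.

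To adjust over all features, each gene's level was used in turn as a covariate beside dose group in a limma fit of the 31041 other probe sets. Klrd1 rose with Prf1 (0.37 log2 units per unit of Prf1, limma adjusted p = 0.01006), and Prf1 rose with Klrd1 (adjusted p = 0.02987). These were the only 2 of 72 ordered pairs of members that passed. In the fit with Prf1, Gzmm had an adjusted p of 0.05111 and Nkg7 of 0.06503. The share of all probe sets called was 0.831% with Prf1, 0.206% with Klrd1, 0.00644% with Gzmm, 0.00322% with Cd5 and 0% with Nkg7, 0% with Cd3e, 0% with Cd3g, 0% with Cd8a and 0% with Cd2. In the 5 fits that called 0, between 1069 (Cd8a) and 2811 (Cd3e) probe sets had an unadjusted p under 0.05 in limma. The call of Klrd1 in the fit with Prf1 was lost without replicate 2 of the vehicle group (adjusted p = 0.0502). That of Prf1 in the fit with Klrd1 was lost without vehicle replicate 2 (0.108), replicate 2 (0.0571) or 6 (0.0827) at 0.1 mg/kg, replicate 1 (0.11) or 2 (0.055) at 0.97 mg/kg, replicate 1 (0.0875), 2 (0.082) or 3 (0.0785) at 9.71 mg/kg, or replicate 5 (0.0634) at 97.1 mg/kg. In the fit with Prf1, Nkg7 passed without vehicle replicate 1 (0.0196) or replicate 1 (0.0308) or 6 (0.0394) at 0.97 mg/kg. Gzmm passed without vehicle replicate 1 (0.0435) or 5 (0.0382), replicate 2 (0.0339) or 6 (0.0334) at 0.1 mg/kg, 1 (0.0265) or 6 (0.0226) at 0.97 mg/kg, 3 (0.0499) at 97.1 mg/kg, or 1 (0.0318) or 3 (0.0437) at 970 mg/kg.

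Animals also differed in how far they stood from their own group's mean, a measure that removes any difference between the groups. The mean difference of the 4 cytotoxic and NK genes from the group mean was largest, at 0.38 log2 units, in vehicle replicate 2, and was 0.33 in replicate 3 and 0.26 in replicate 5 at 9.71 mg/kg, with all 4 genes above the group mean in each. Their 5 T cell genes stood at 0.13, 0.05 and 0.12 by the same measure. The lowest such differences were -0.25 in vehicle replicate 5 and -0.25 in replicate 6 at 970 mg/kg.

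Prf1 called 258 probe sets, the most of any member, 252 rising with it and 6 falling. Of these 217 name 1 gene, for 191 genes. The closest was Ccl5, a chemokine of cytotoxic lymphocytes, with r = 0.91 (permutation p = 1e-05, the smallest that 100000 permutations can give; limma adjusted p = 1.161e-09). Spearman's rho was 0.91, r was 0.90 without the 2 farthest animals, and within dose groups r ran from 0.64 at 97.1 mg/kg to 0.97. Ccl5 rose by 1.08 log2 units per unit of Prf1, and its lowest, median and highest vehicle levels were 6.61, 7.26 and 8.14. Gzma, the granule protease granzyme A, followed at r = 0.86 (permutation p = 1e-05, rho = 0.81, 0.84 without the 2 farthest animals, limma adjusted p = 6.873e-07).

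The next was no lymphocyte gene. Clec4f, a lectin receptor of Kupffer cells, had r = 0.85 with Prf1 (permutation p = 1e-05, rho = 0.78, 0.82 without the 2 farthest animals, limma adjusted p = 2.577e-06) and rose by 0.82 log2 units per unit of Prf1. Cd5l, a protein secreted by macrophages, had r = 0.83 (adjusted p = 3.543e-06 in limma). Ptprc, the CD45 phosphatase found on all leukocytes, had r = 0.83 (adjusted p = 7.363e-06 in limma). Clec4f levels averaged 10.04 ± 0.41 (SD, n = 6, from 9.49 to 10.63) in vehicle and 10.33 ± 0.25 (SD, n = 6, from 9.83 to 10.53) at 970 mg/kg, so these groups overlapped as well. With each animal left out in turn, Ccl5, Gzma and Clec4f passed in 36 of 36 fits.

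**Figure D4:**
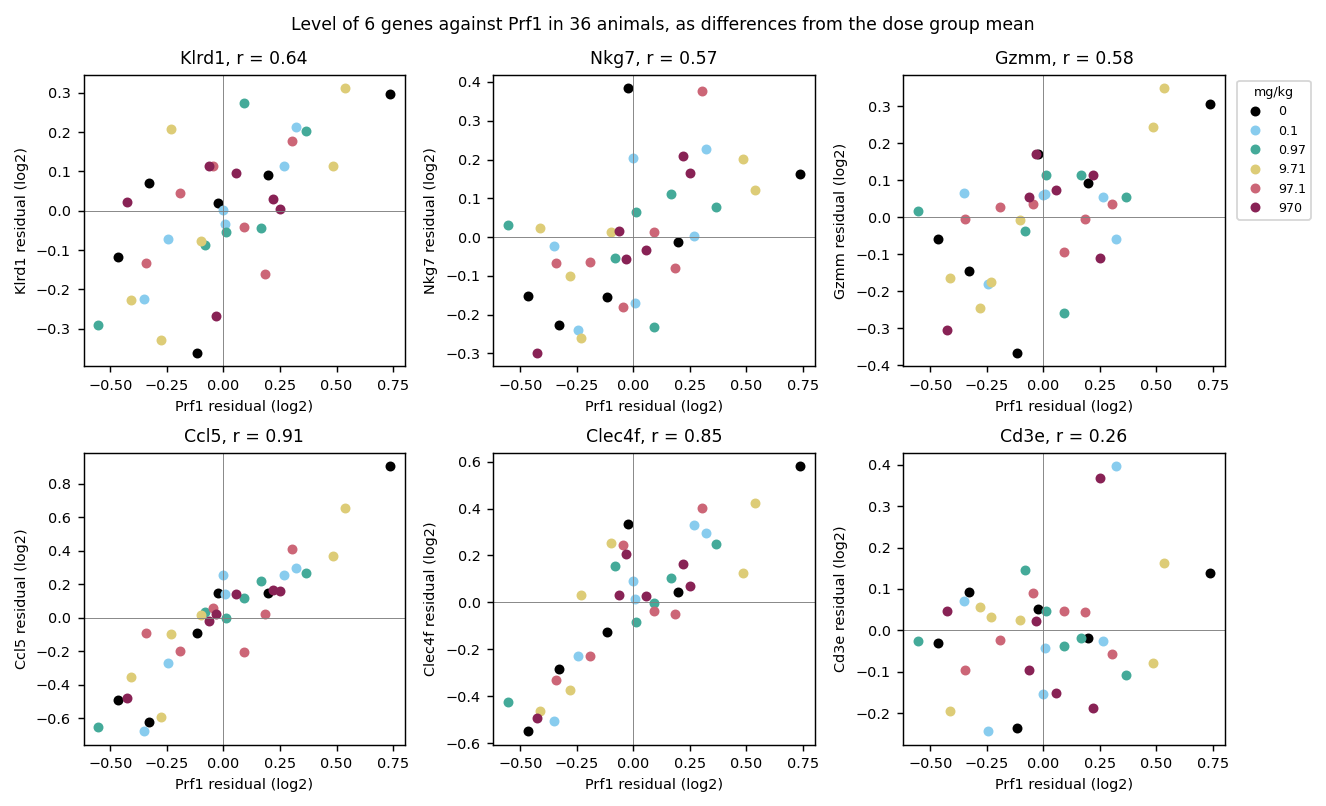
Each animal's difference from its dose group mean (log2 units) for 6 genes (vertical axes) against the same difference for Prf1 (horizontal axes), coloured by dose. The points lie nearest to a line for Ccl5 (r = 0.91) and Clec4f (0.85), less so for Klrd1 (0.64), Gzmm (0.58) and Nkg7 (0.57), and are scattered for Cd3e (0.26).

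The counts of called genes in the lists stand beside 0.831% of all probe sets called with Prf1. Of 20 further T cell genes 1 rose with it, Cd7 (r = 0.60, limma adjusted p = 0.04548), and the median r was 0.04. Within the dose groups the r of Cd7 and Prf1 ran from -0.57 to 0.93. Of 26 NK cell and cytotoxic genes 3 rose: Gzma, Klrb1a, an NK receptor of the Klrb1 family (r = 0.72, adjusted p = 9.107e-04 in limma), and Tyrobp, an adaptor of NK and myeloid receptors (r = 0.81), with a list median of 0.23. Of 16 chemokine and receptor genes 4 rose, namely Ccl5, Xcl1 (r = 0.71), Cxcl9 (0.58) and Il18 (0.71), with a list median of 0.42. Lymphocyte activation genes gave 0 of 13 and B cell markers 0 of 8, at medians of 0.11 and 0.20. Tyrobp, Cxcl9 and Il18 were chosen for mention after their values were seen.

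Rising with Prf1 were 8 of 12 macrophage markers (median r = 0.75), 8 of 13 pan leukocyte genes (0.66), 12 of 15 interferon response genes (0.67) and 8 of 11 antigen presentation genes (0.69). Over all probe sets 0.831% were called with Prf1, and the median r was -0.021. The macrophage genes included Csf1r, the receptor for the macrophage growth factor, and the complement gene C1qc, both at r = 0.80. Not every gene of these lists followed Prf1. The macrophage markers Mrc1 and Lyz2 had r = 0.05 and -0.15, and the interferon response gene Ifit1 had r = -0.22. Mrc1, Lyz2 and Ifit1 were chosen for mention after their values were seen. Usp18, a brake on interferon signalling, had r = 0.75 and Irf7, a transcription factor of the interferon response, 0.74. Tap1, part of the transporter that supplies peptides for presentation to CD8 T cells, had r = 0.81, and Cd74, a chaperone of class II molecules, 0.70.

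The mean log2 level of the 12 macrophage markers ran from 8.29 to 9.09 in vehicle, 8.49 to 9.23 at 0.1 mg/kg, 8.62 to 9.11 at 0.97 mg/kg, 8.63 to 9.13 at 9.71 mg/kg, 8.59 to 9.14 at 97.1 mg/kg and 8.58 to 9.07 at 970 mg/kg. That of the 15 interferon response genes ran from 5.67 to 6.79 in vehicle, 5.52 to 6.85 at 0.1 mg/kg, 5.83 to 7.03 at 0.97 mg/kg, 5.72 to 7.00 at 9.71 mg/kg, 5.61 to 6.78 at 97.1 mg/kg and 6.04 to 6.62 at 970 mg/kg. Both lists overlapped between vehicle and every dose. In limma 0 of the macrophage and interferon response genes passed at any dose, where at most 0.00644% of all probe sets did. The part of these genes in the covariation of Prf1, Klrd1, Nkg7 and Gzmm was not tested.

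Of 6 neutrophil, 6 erythroid, 8 endothelial, 10 stellate cell and fibroblast, 6 bile duct, 9 hepatocyte and 11 cell cycle genes, 0 were called with Prf1, at median r between -0.24 (stellate cell and fibroblast) and 0.18 (cell cycle). The 6 probe sets that fell with Prf1 include those of Dcbld2, Myh1 and Pmp22, chosen for mention after their values were seen, and the others name no single gene. As a measure of RNA quality, the 3′ signal minus the 5′ signal of beta-actin correlated with Prf1 at r = 0.07 and with the 12 member probe sets at -0.15 to 0.46. In the fit with that difference as the covariate 0 members were called, against 0.454% of all probe sets.

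**Figure D5:**
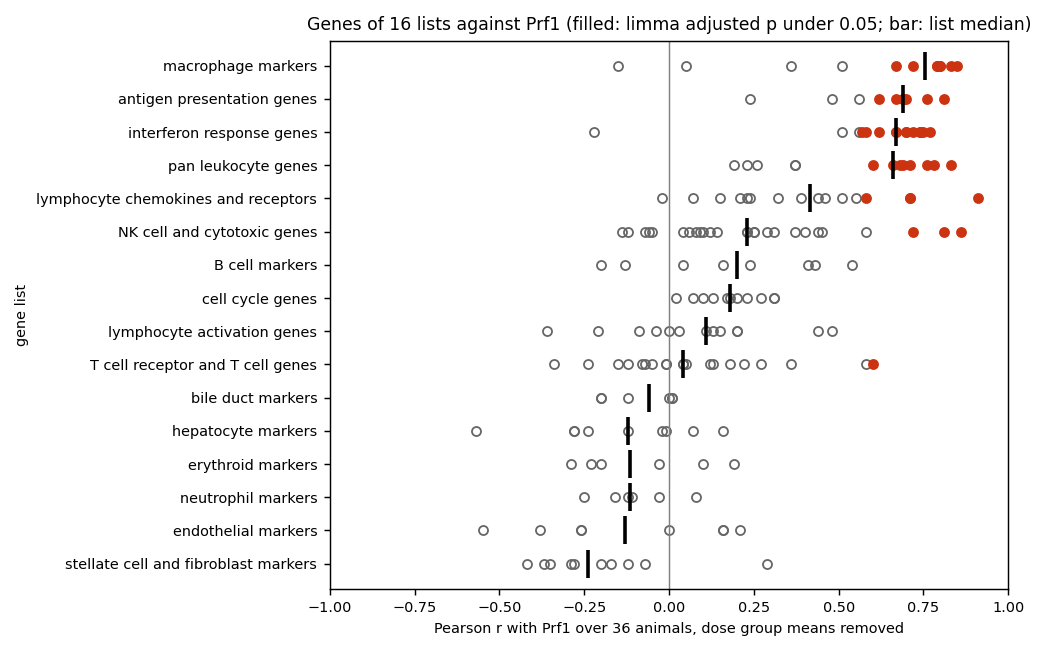
Pearson r with Prf1 over 36 animals, dose group means removed, for the measured genes of 16 lists (circles; filled where the limma adjusted p was under 0.05; black bar, list median). Filled circles are most frequent in the macrophage (8 of 12), antigen presentation (8 of 11), interferon response (12 of 15) and pan leukocyte (8 of 13) lists.

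Klrd1 called 64 probe sets, 63 rising with it and 1, Mcpt8, falling. Gzma was the closest, with r = 0.74 (limma adjusted p = 0.008397). Of the lists, Klrd1 called 5 of 15 interferon response genes (Mx1, Oas1a, Irf7, Ifit3 and Usp18), 3 of 12 macrophage markers (Clec4f, Adgre1 and Cd5l), and 1 each of the NK cell (Gzma), chemokine (Ccl5), pan leukocyte (Ptprc) and antigen presentation (Ciita) genes. It called 0 of 20 T cell genes, at a median r of 0.09. All these counts stand beside 0.206% of all probe sets called with Klrd1, and 0 of 20 is near that share. Those list members and Mcpt8 were named because Klrd1 called them, after their values were seen. The count of 64 turned on single animals. It was 15 without vehicle replicate 2, 34 or 18 without replicate 2 or 6 at 0.1 mg/kg, 22 or 32 without replicate 1 or 2 at 0.97 mg/kg, 20, 2 or 26 without replicate 1, 2 or 3 at 9.71 mg/kg, and 31 without replicate 5 at 97.1 mg/kg. It was 117 without vehicle replicate 5, 108 without replicate 6 at 9.71 mg/kg and 124 without replicate 3 at 970 mg/kg. The fits with Prf1 and Klrd1 used the same 36 arrays, so their lists are not independent.

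Nkg7 and Gzmm called no gene of these lists, where they called 0% and 0.00644% of all probe sets. Those counts of 0 therefore do not set the lists apart from the other probe sets. The median r of Nkg7 and Gzmm was above 0 for the interferon response, macrophage, pan leukocyte, antigen presentation and chemokine lists. It was 0.14 with Nkg7 and 0.20 with Gzmm for the NK cell list. Such positive medians were not particular to these lists. In the same order they were 0.09 and 0.37 for B cell markers, 0.25 and 0.20 for cell cycle genes and 0.04 and 0.11 for T cell genes. Some other lists had medians below 0, the lowest being -0.22 with Nkg7 and -0.26 with Gzmm for stellate cell and fibroblast markers. Nkg7 had a median r of 0.49 with the interferon response genes and 0.44 with the macrophage markers, and Gzmm of 0.42 and 0.37. The corresponding medians were 0.26 and 0.15 for Cd3e, 0.07 and 0.15 for Cd8a, -0.08 and -0.01 for Cd3g, 0 and -0.02 for Cd5, and -0.22 and -0.24 for Cd2. Gzmm called Capg, an actin-capping protein (r = 0.73, limma adjusted p = 0.03514), and Tmem17 (r = -0.75, adjusted p = 0.03843 in limma), and Cd5 called Trex2, a DNA exonuclease (r = 0.77, adjusted p = 0.02009 in limma). Tmem17 and Trex2 were chosen for mention after their values were seen.

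Over the 36 animals the genes outside the markers whose residuals were most like theirs, by the mean r with the 9 measured genes, were Klrb1a (0.37), Capg (0.36), Ccl5 (0.35), Ifitm3 (0.35), Slc5a3 (0.35) and Abi3 (0.34). Within the markers the mean r with the other 8 was 0.30 for Gzmm, 0.29 for Prf1, 0.25 for Nkg7, 0.16 for Klrd1, 0.13 for Cd5, 0.12 for Cd3e, 0.08 for Cd8a, 0.02 for Cd3g and -0.05 for Cd2. Klrb1a was above 0 with all 9 genes, from 0.08 to 0.72, and Ccl5 with 8 of 9. The arrays share tissue, platform and processing, and these likeness values are a description with no test.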

How the data were processed

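Liver RNA of 36 rats was hybridised to Affymetrix arrays. The authors deposited log2 signals per probe set made with RMA in the affy package, versions not stated, per the submitters' processing notes. Quantile normalization in RMA sets every array to 1 distribution, so a level is relative to the other transcripts. The table holds 31099 probe sets; 57 controls were left out, and 20826 name 1 gene, 436 several and 9780 none. Names come from the platform annotation, which gives no build.

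The series' design text names R/maanova at a false discovery rate under 5%. Here limma 3.58.1 in R 4.3.3 (lmFit, eBayes, two-sided, Benjamini-Hochberg over the table, 0.05) fitted all 36 samples, for each dose, an F test and a slope. Covariation fits added 1 gene's level (its probe set of highest mean) to dose group. Correlations used residuals from group means in Python 3.11.15 with scipy 1.17.1 and 100000 two-sided permutations within groups. No filter was applied.

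The members and lists were chosen with earlier results of these data known, and the counts of probe sets called with Prf1 and Klrd1 were added after seeing the data. Named were all members, the 6 other genes of highest mean r with them, up to 4 genes per list by that mean r, and exceptions as marked. Tested on simulated data with 31042 probe sets, limma at 970 mg/kg found 95% of 100 simulated 1.5-fold changes and 99% of 100 simulated 2-fold changes, beside 10 false calls. The simulated fit with Prf1 over 31041 probe sets recovered 94% of 100 that shared a factor at an expected r of 0.8. It made 8 false calls. The changed probe sets were drawn from outside the members, and all noise was independent. The adjusted threshold loosens as more changes are planted, and the real data held 2 calls at 970 mg/kg. These rates are therefore not the power for a member, and Prf1 had a larger SD than 97.5% of all probe sets. Alternatives were a replicate block, centring, cyclic loess, array weights, the beta-actin difference, an intensity trend with a robust prior, brighter probe sets alone, a threshold of 0.1, 12 samples alone, Spearman's rho, group means kept, averaging the probe sets of a gene, and each sample or dose group left out.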

Additional observations from a re-analysis of the deposited data

Results flagged for a closer look

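Of 84 checks of 6 animals each, 5 had an animal whose gap to the nearest other was above Dixon's 95% critical value of the group's range, and chance flags about 1 in 20. At 97.1 mg/kg Cd3g in replicate 5 was 4.17, with the next animal at 4.57, and Nkg7 in the same animal was 5.26, with the next at 4.89. Gzmm at 97.1 mg/kg was 6.15 in replicate 3, under the next animal at 6.24, in the tightest group of that gene. At 970 mg/kg Cd2 in replicate 2 was 5.19, above the next animal at 4.89, and Klrd1 in replicate 3 was 3.34, below the next at 3.62.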

How the results depend on the processing

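The count of members past the threshold was 0 at each dose, for the F test and for the slope under every alternative run and with each animal left out (0 to 0). The brighter probe sets alone left 2 of the 12 members. The median r over member pairs was 0.13 and ran from 0.09 to 0.16 with each animal left out. Samples of the same replicate number had a mean r of 0.0048 over 90 pairs (-0.25 to 0.26, 15 over 0.1). That mean does not settle whether the numbers mark a pairing. With the replicate block 1 ordered pair of members passed instead of 2, and 161 probe sets were called with Prf1 and 15 with Klrd1, instead of 258 and 64. Klrd1 called 112 with array weights, 127 with the beta-actin difference as a covariate, 37 with an intensity trend and robust prior, and 127 at a threshold of 0.1, where 4 ordered pairs passed. Leaving out a dose group gave 1 ordered pair without vehicle, 0 without 0.1 mg/kg, 1 without 0.97 mg/kg, 0 without 9.71 mg/kg and 1 without 97.1 mg/kg. Klrd1 then called 9 without 0.1 mg/kg, 0 without 0.97 mg/kg, 0 without 9.71 mg/kg and 16 without 97.1 mg/kg. Leaving out each animal gave 0 to 4 ordered pairs, 2 to 124 probe sets with Klrd1 and 207 to 274 with Prf1. Causes were not tested. Of 1080 recomputed fold changes 0 passed and 38 changed sign, among 13 members' fold changes of at most 0.09. Signs changed for Cd3e 1389997_at at 97.1 mg/kg with centred arrays (0.00), Cd8a 1395116_at at 0.1 mg/kg with array weights (0.00), and Cd3g (-0.02) and Cd8a 1369877_at (0.01) at 970 mg/kg with the beta-actin covariate. With each animal left out the ranges were -0.04 to 0.05 (Cd3e 1389997_at, 97.1 mg/kg), 0.00 to 0.08 (the same, 0.97 mg/kg), -0.02 to 0.11 (Cd3e 1379791_at, 0.1 mg/kg), -0.05 to 0.03 (Cd8a 1395116_at, 0.1 mg/kg), -0.02 to 0.05 (the same, 97.1 mg/kg), -0.07 to 0.07 (Cd8a 1369877_at, 970 mg/kg), -0.01 to 0.13 (the same, 97.1 mg/kg), -0.04 to 0.06 (Cd3g, 970 mg/kg) and -0.04 to 0.08 (Cd3g, 9.71 mg/kg). For Cd5 they were -0.11 to 0.05, -0.12 to 0.03, -0.15 to 0.00 and -0.12 to 0.03 at 0.97, 9.71, 97.1 and 970 mg/kg.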
